A study of Homo sapiens with 6 samples.

Results

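The cytochrome P450 enzymes measured here were 47 genes of the 19775 genes with a single-symbol probe set on the array. They were taken as every gene whose only symbol in the platform annotation is CYP followed by a family number, a subfamily letter and a member number. CYP51A1, the lanosterol demethylase of cholesterol synthesis, was left out. The 47 genes had 92 such probe sets, and each gene was described by its brightest one.

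P450 enzymes are heme proteins that insert oxygen into small lipophilic molecules with electrons passed on by a reductase, or by ferredoxin in mitochondria. Some clear drugs and pollutants, some hydroxylate fatty acids and eicosanoids, and others make or inactivate steroid hormones, bile acids, oxysterols, vitamin D and retinoic acid. In prostate cancer the family is known mainly through CYP17A1, which androgen synthesis depends on and which drugs against the disease inhibit.

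VCaP, an established human prostate cancer cell line, was profiled on 6 expression arrays after knockdown of PRMT5, an arginine methyltransferase. There were 3 groups of 2 arrays: PRMT5 shRNA 1, PRMT5 shRNA 2 and NTC shRNA, a non-targeting hairpin. All 3 groups received 100 ng/ml doxycycline for 3 days in serum-supplemented medium, so every comparison was between hairpins and none was with uninduced cells. The labels do not say whether the lines were clones or pools, or whether the arrays of a group came from separate cultures, so the p-values speak for the scatter among these arrays alone, and that scatter may be technical.

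Arrays of the same group correlated at r = 0.996 to 0.997 across tested genes, and arrays of different groups at 0.976 to 0.991, across genes that are not independent replicates. The brightest PRMT5 probe set read 135.6 and 133.8 with shRNA 1, 291.2 and 321.0 with shRNA 2, and 809.8 and 880.5 with NTC. PRMT5 was thus at 15.9% of NTC with shRNA 1 and 36.2% with shRNA 2. All 9 prostate luminal markers on the array passed the filter described next, with summed intensities of 14986 to 15651, 14542 to 15735 and 12695 to 12911 in the shRNA 1, shRNA 2 and NTC arrays. Of 12 hepatocyte markers 5 passed, ALB at 830.8 to 944.0 on every array, while APOA1, APOB, HP, APOC3, TF, APOA2 and FGB were dim. The hepatocyte list summed to 1548 to 1555, 1842 to 1967 and 1693 to 1840 in the same order of groups. Of 9 stromal, endothelial and immune markers COL1A1 alone passed, and the list summed to 64.1 to 77.0, 74.5 to 85.9 and 72.2 to 74.6. Of 7 adrenocortical markers MRAP alone passed, with sums of 111.6 to 125.3, 117.2 to 147.4 and 163.7 to 170.5. Of 6 intestinal markers CDH17, LGALS4 and CDX2 passed, with sums of 103.9 to 117.2, 115.9 to 122.7 and 135.1 to 136.7. The ratio of the 3′ to the 5′ ACTB control, a sign of RNA length, was 3.49 and 3.88 with shRNA 1, 5.72 and 4.995 with shRNA 2, and 4.58 and 4.88 with NTC. The same ratio of the GAPDH control was 1.21 and 1.23 with shRNA 1, 1.23 and 1.22 with shRNA 2, and 1.26 and 1.33 with NTC. The part of these markers and ratios in the differences below was not tested.

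Most P450 genes were dim in these cells. A gene was kept for testing if a probe set of it reached its array's median intensity, which lay between 14.8 and 16.4, in at least 2 of the 6 arrays. By this rule 20 of the 47 members were kept, a share of 42.6%, against 62.8% of all 19775 genes. The 27 dim members had intensities of 0.2 to 18.6 with a median of 4.8. In bulk samples, fewer expressing cells and less RNA per cell cannot be told apart.

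The kept members were read well above the array medians in some cases. CYP2U1, which hydroxylates long-chain fatty acids, averaged 575 ± 14.6 with shRNA 1, 529 ± 16.1 with shRNA 2 and 518 ± 31.9 with NTC (SD, n = 2 arrays each). CYP4V2, a fatty acid hydroxylase mutated in Bietti crystalline dystrophy of the retina, averaged 401 ± 30.5, 399 ± 3.82 and 356 ± 21.4 in the same groups. At the edge of the filter, CYP4F22 and CYP4F3 reached the median in 3 arrays each, and CYP1A1, the brightest dim member, reached it in 1. Intensities of different probe sets depend on their probes, so they do not rank the genes by abundance.

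**Figure D1:**
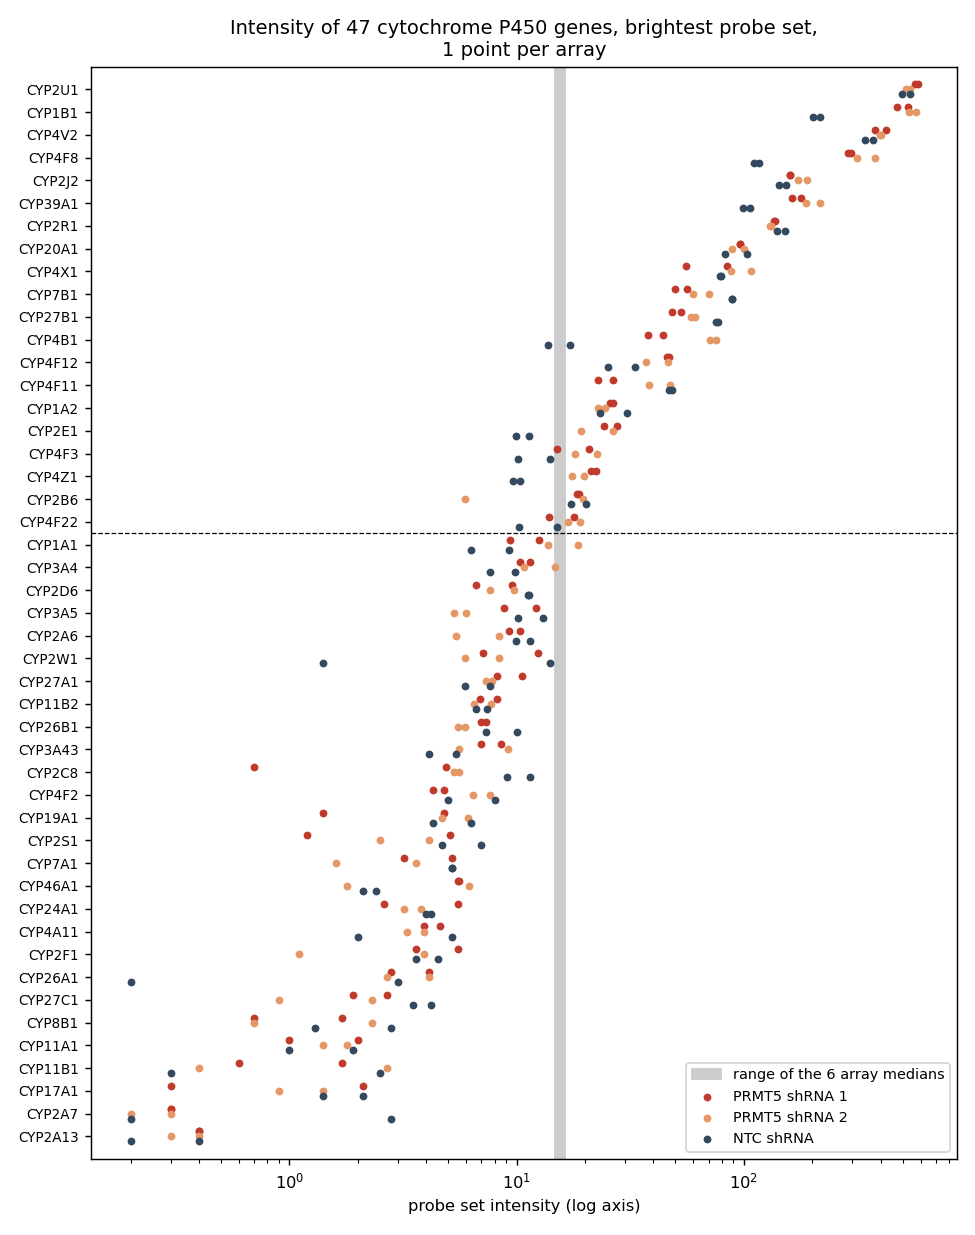
Intensity of the brightest probe set of each of the 47 P450 genes on a log axis, 1 point per array, for PRMT5 shRNA 1, PRMT5 shRNA 2 and NTC shRNA; the grey band is the range of the 6 array medians, 14.8 to 16.4, and the dashed line separates the 20 kept genes from the 27 dim ones. CYP2U1, CYP1B1 and CYP4V2 have the brightest probe sets, and the knockdown arrays of CYP1B1, CYP4F8 and CYP4B1 lie to the right of their NTC arrays.

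With both hairpins averaged against NTC, 7 of the 20 tested members were higher and 3 lower. In the same comparison 32.4% of all 12413 genes tested were called, 15.4% higher and 17.0% lower, by limma on log2(intensity + 16) at a Benjamini-Hochberg adjusted p under 0.05. CYP2E1, CYP4Z1, CYP4F3 and CYP4F22 passed the filter through knockdown arrays alone, with 0 NTC arrays at the median, so a difference was built into their selection. Among the other 16, 5 were higher and 3 lower. CYP4B1 was among those higher. It reached the median in 1 NTC array where the filter asked for 2, so it too needed its knockdown arrays to pass. The median log2 difference was 0.17 over all 20, 0.07 over those 16 and -0.01 over all tested genes. These counts describe the tested members and are not a statement about all 47.

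Each hairpin gave its own count against the shared NTC arrays. With shRNA 1, 7 members were higher and 3 lower, where 39.3% of all genes were called, 16.2% higher and 23.1% lower. With shRNA 2, 6 were higher and 1 lower, where 21.4% of all genes were called, 13.1% higher and 8.39% lower. The 16 members not kept through knockdown arrays alone had 5 higher and 3 lower with shRNA 1, and 4 higher and 1 lower with shRNA 2. CYP4B1, which also needed its knockdown arrays to pass, was among the higher ones with each hairpin. Median differences over the 20 were 0.15 with shRNA 1 and 0.25 with shRNA 2, over the 16 they were 0.08 and 0.10, and over all genes -0.04 and 0.01. The tests of the 2 hairpins share their NTC arrays, so they are not independent of each other.

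**Figure D2:**
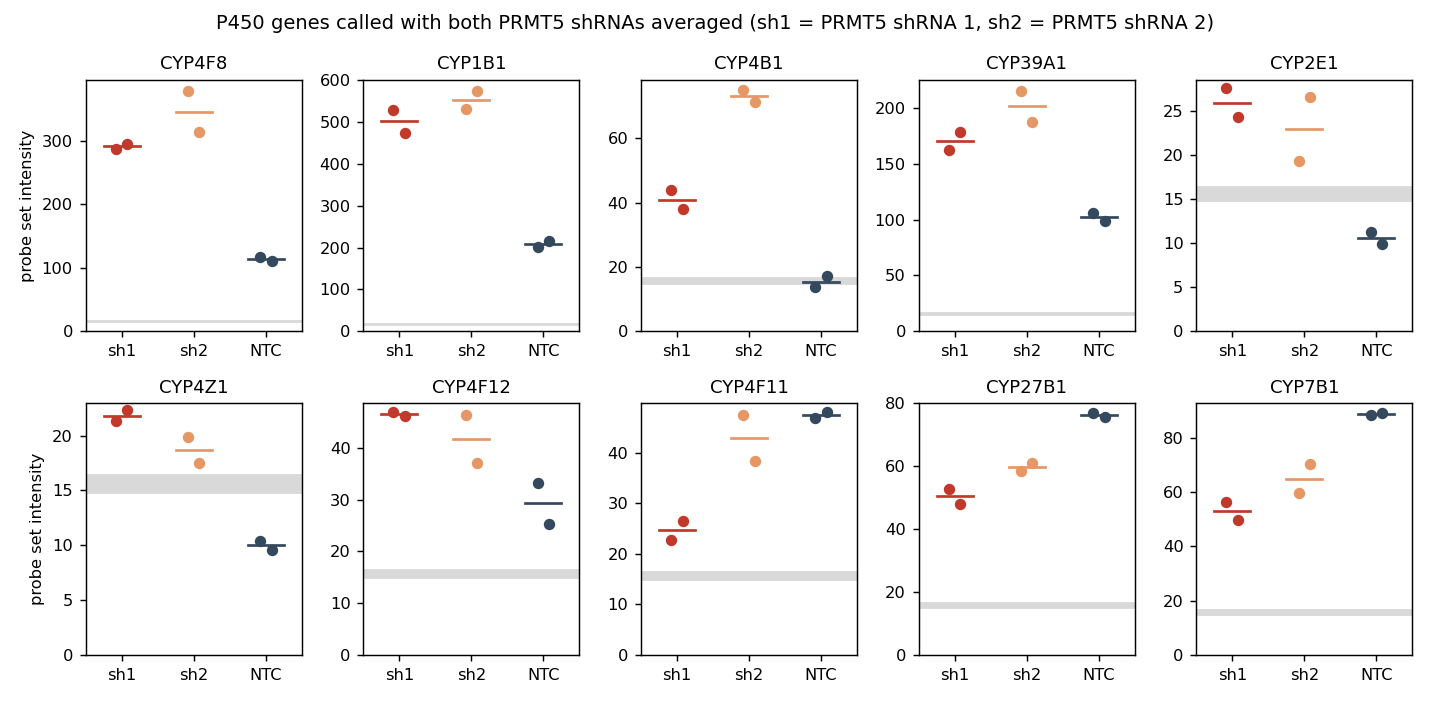
Intensity on a linear axis from 0 of the 10 P450 genes called with both hairpins averaged, 1 point per array and a line at each group mean of 2 arrays; the grey band is the range of array medians. The 4 knockdown arrays of CYP4F8, CYP1B1, CYP4B1, CYP39A1, CYP2E1, CYP4Z1 and CYP4F12 lie above both NTC arrays, and those of CYP27B1 and CYP7B1 lie below them.

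**Figure D3:**
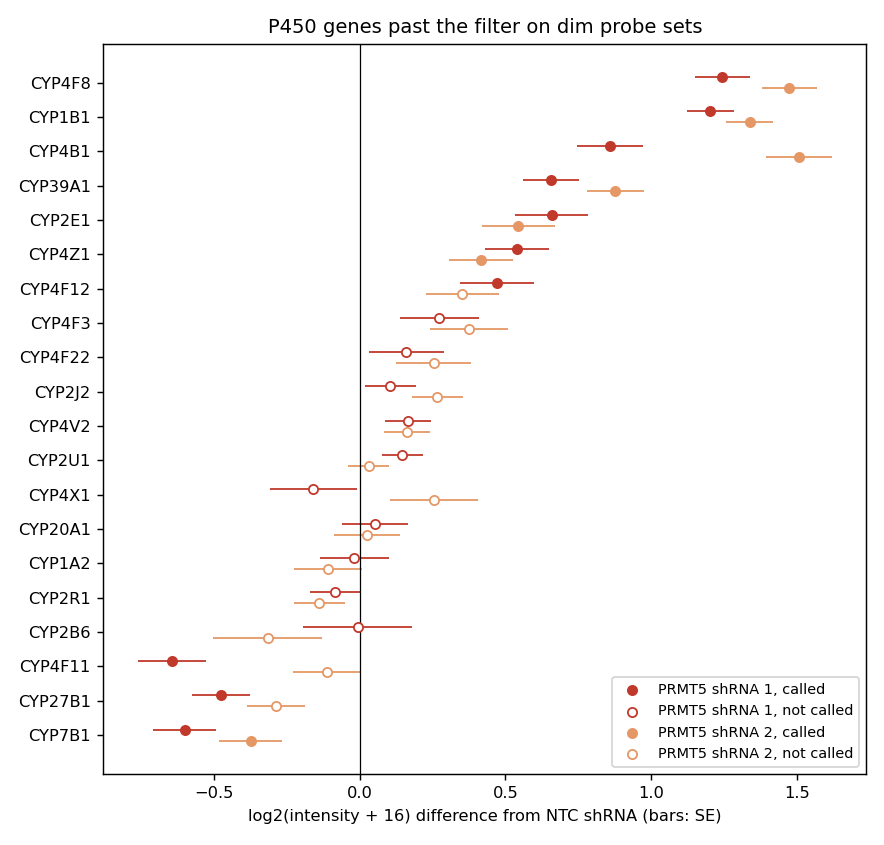
Log2(intensity + 16) difference from NTC shRNA of the 20 tested P450 genes, with PRMT5 shRNA 1 above PRMT5 shRNA 2 for each gene, bars showing the standard error from limma, and filled points marking adjusted p under 0.05. The differences run from 1.51 for CYP4B1 with shRNA 2 to -0.64 for CYP4F11 with shRNA 1.

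CYP1B1 rose with both hairpins. This enzyme oxidises polycyclic aromatic hydrocarbons and estradiol, and its gene is a classical target of the aryl hydrocarbon receptor, AHR. Its intensities were 529.0 and 474.5 with shRNA 1, 531.9 and 573.3 with shRNA 2, and 201.9 and 215.6 with NTC. All 4 knockdown arrays stood far above both NTC arrays. On this brightest probe set both shRNA 2 arrays lay slightly above both shRNA 1 arrays. The log2 difference was 1.20 ± 0.08 with shRNA 1 and 1.34 ± 0.08 with shRNA 2 (SE), and with both averaged limma gave an adjusted p of 2.06e-07. The other 2 kept CYP1B1 probe sets were also higher, by 1.33 ± 0.10 and 1.23 ± 0.09 in a fit over 23920 probe sets. The dimmest CYP1B1 probe set read 0.3 to 1.0 on every array and shows no level of the gene.

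The other family 1 members were not called or were dim. CYP1A2, the caffeine-oxidising enzyme of liver, averaged 26.2 ± 0.42 with shRNA 1, 23.7 ± 1.06 with shRNA 2 and 26.9 ± 5.09 with NTC, and its groups overlapped (limma, adjusted p = 0.669). This probe set may bind related transcripts, and the second CYP1A2 probe set was dim at 0.5 to 3.9. CYP1A1, another AHR target, was dim, at 9.4 and 12.6, 13.7 and 18.6, and 6.3 and 9.3 in the same order of groups, and was not tested. AHR itself averaged 126 ± 8.91 with shRNA 1, 87.7 ± 2.97 with shRNA 2 and 99.4 ± 10.9 with NTC. AHR was higher with shRNA 1 by 0.30 ± 0.10 (limma, adjusted p = 0.0413) and read -0.15 ± 0.10 with shRNA 2 (adjusted p = 0.335). Its difference between the hairpins, shRNA 2 minus shRNA 1, was -0.45 ± 0.10 (adjusted p = 0.011). The brightest CYP1B1 probe set differed between them by 0.14 ± 0.08 (adjusted p = 0.235). In the probe set fit, the other kept CYP1B1 probe sets differed by -0.13 ± 0.12 (limma, adjusted p = 0.439) and -0.32 ± 0.10 (0.0342). The sign of the CYP1B1 difference between hairpins thus depended on the probe set.

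Family 4, the fatty acid hydroxylases, made up 9 of the 20 tested members and 5 of the 10 called ones. These enzymes attack the omega end of fatty acids and eicosanoids. Of its 11 members 9 were tested, and 4 were higher and 1 lower with both hairpins averaged, where 32.4% of all genes were called. The median log2 difference of the 9 was 0.32, and 3 of the 9 passed the filter through knockdown arrays alone.

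CYP4F8, a prostaglandin hydroxylase of the seminal vesicles and prostate, rose most among all tested members with both hairpins averaged. Its intensities were 287.5 and 295.5 with shRNA 1, 378.4 and 313.9 with shRNA 2, and 116.4 and 111.2 with NTC. All knockdown arrays lay above both NTC arrays, and both shRNA 2 arrays lay above both shRNA 1 arrays. The log2 difference was 1.24 ± 0.10 with shRNA 1 and 1.47 ± 0.10 with shRNA 2, and 1.36 ± 0.08 averaged (limma, adjusted p = 4.77e-07). The difference between the hairpins, 0.23 ± 0.10, did not pass the test (adjusted p = 0.0981).

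CYP4F8 lies among related genes on chromosome 19. In RefSeq order CYP4F22, CYP4F8, CYP4F3 and CYP4F12 are consecutive genes there, and CYP4F2 and CYP4F11 are next to each other nearby. CYP4F8 and CYP4F11 moved in opposite directions with shRNA 1, while CYP4F11 was not called with shRNA 2. Their promoter windows were the most alike of all 36 family 4 pairs for which RefSeq windows were at hand. A window runs from 250 bases before to 50 bases after the annotated start site, and these 2 were identical at 66.35% of columns in a global alignment, against 38.53% to 50.61% for the 26 pairs that were not both CYP4F. CYP4F11 with CYP4F2 came next, at 65.31%. The 10 pairs of CYP4F with CYP4F ran from 42.86% to 66.35%. CYP4F8 was at 58.41% with CYP4F2, 46.56% with CYP4F22 and 44.71% with CYP4F3. The 2 windows are shown in GRCh38.p14, from RefSeq, because they belong to the most alike pair, with opposite differences for shRNA 1. Capitals mark the 6 runs of 8 or more bases that the alignment found identical, 62 bases in all. CYP4F8 is on the plus strand at chr19:15614968-15615267, and CYP4F11 on the minus strand at chr19:15934818-15935117.
CYP4F8: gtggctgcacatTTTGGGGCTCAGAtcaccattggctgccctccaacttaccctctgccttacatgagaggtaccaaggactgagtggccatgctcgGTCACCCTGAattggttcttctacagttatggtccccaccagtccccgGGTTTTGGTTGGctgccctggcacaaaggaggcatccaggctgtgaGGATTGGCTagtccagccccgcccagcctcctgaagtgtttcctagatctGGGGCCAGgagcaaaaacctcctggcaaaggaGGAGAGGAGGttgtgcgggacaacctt
CYP4F11: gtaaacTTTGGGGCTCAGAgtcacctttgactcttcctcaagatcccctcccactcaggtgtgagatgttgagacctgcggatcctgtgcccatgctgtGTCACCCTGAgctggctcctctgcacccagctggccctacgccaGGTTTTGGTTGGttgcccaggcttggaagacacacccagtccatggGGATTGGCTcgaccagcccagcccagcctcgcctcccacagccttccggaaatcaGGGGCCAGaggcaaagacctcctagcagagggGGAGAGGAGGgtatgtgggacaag
The longest shared run was 13 bases. The alignment describes the letters the windows share and marks no site.

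CYP4F11, which hydroxylates long-chain fatty acids and vitamin K, fell with shRNA 1. Its intensities were 22.8 and 26.5 with shRNA 1, 47.5 and 38.3 with shRNA 2, and 46.9 and 48.1 with NTC. Both shRNA 1 arrays lay far below all others, while the shRNA 2 arrays overlapped the NTC arrays. The log2 difference from NTC was -0.64 ± 0.12 with shRNA 1 (limma, adjusted p = 0.00149) and -0.11 ± 0.12 with shRNA 2 (adjusted p = 0.54). The averaged difference was -0.38 ± 0.10 (adjusted p = 0.0152), a call that was lost without NTC replicate 1 (adjusted p = 0.0764) and without NTC replicate 2 (0.0936). With a pseudocount of 64 the averaged difference was -0.20.

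The other CYP4F genes were nearer to the threshold. CYP4F12, an omega-hydroxylase of fatty acids, read 47 and 46.1 with shRNA 1, 46.4 and 37.1 with shRNA 2, and 33.3 and 25.3 with NTC, with no overlap between knockdown and NTC. It was higher by 0.41 ± 0.11 averaged (limma, adjusted p = 0.0149), and by 0.21 with a pseudocount of 64, and without NTC replicate 2 the value was 0.28 (adjusted p = 0.173). Its difference was 0.47 ± 0.13 with shRNA 1 (adjusted p = 0.0128), lost without NTC replicate 2 (0.11) or either shRNA 1 array (0.0573 and 0.0532), and 0.35 ± 0.13 with shRNA 2 (0.0699). CYP4F3, which inactivates leukotriene B4 in neutrophils, was 0.32 ± 0.12 apart from NTC (adjusted p = 0.0536), and CYP4F22, which hydroxylates fatty acids of skin ceramides, 0.21 ± 0.11 (adjusted p = 0.179). CYP4F2, the vitamin K hydroxylase, was dim at 4.3 to 8.0.

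CYP4B1, an extrahepatic hydroxylase known for activating plant toxins in the lung, rose with both hairpins. Its intensities were 43.9 and 37.9 with shRNA 1, 75.1 and 71.2 with shRNA 2, and 13.7 and 17.1 with NTC. The 3 groups did not overlap, and NTC sat at the array medians. With 1 NTC array at the median, CYP4B1 needed its knockdown arrays to pass the filter. The log2 difference was 0.86 ± 0.11 with shRNA 1, 1.51 ± 0.11 with shRNA 2 and 1.18 ± 0.10 averaged (limma, adjusted p = 5.78e-06). The gap between the hairpins was 0.65 ± 0.11 (adjusted p = 0.00321), and the second CYP4B1 probe set, also higher by 0.65 ± 0.11 averaged, had a gap of 0.34 ± 0.13 (adjusted p = 0.0813). Because NTC was near the pseudocount of 16, the size depended on it: over the alternatives the averaged difference ran from 0.60 with a pseudocount of 64 to 1.77 with 1.

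CYP4B1 has its neighbours on chromosome 1, where CYP4B1, CYP4A11, CYP4X1 and CYP4Z1 are consecutive in RefSeq order. The CYP4B1 promoter window, chr1:46798796-46799095 on the plus strand in GRCh38.p14 from RefSeq, is shown because CYP4B1 differed most between the hairpins. Capitals mark TATAAA, searched on both strands and found with its first base 29 bases before the start site.
CYP4B1: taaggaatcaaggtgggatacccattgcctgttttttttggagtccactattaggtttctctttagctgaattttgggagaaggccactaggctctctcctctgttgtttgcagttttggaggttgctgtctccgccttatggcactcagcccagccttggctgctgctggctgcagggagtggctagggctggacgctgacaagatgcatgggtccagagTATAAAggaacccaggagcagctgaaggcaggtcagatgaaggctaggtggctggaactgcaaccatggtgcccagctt
TATAAA was present in 11 of the 34 members with a RefSeq window and in 12% of all 27305 windows, and this motif was chosen after the sequences were seen. CYP4Z1, a fatty acid hydroxylase of the mammary gland that is raised in breast tumours, read 21.3 and 22.3 with shRNA 1, 19.9 and 17.5 with shRNA 2, and 10.4 and 9.6 with NTC. The groups did not overlap, but both NTC values lay below the array medians. CYP4Z1 was higher by 0.54 ± 0.11 with shRNA 1 and 0.42 ± 0.11 with shRNA 2 (limma, adjusted p = 0.0034 averaged), and it was kept only through the knockdown arrays. Its averaged difference of 0.48 ± 0.10 ran from 0.19 with a pseudocount of 64 to 0.95 with 1. Its shRNA 2 call was lost without either NTC array (adjusted p = 0.0729 and 0.100) or without shRNA 2 replicate 1 (0.112).

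The remaining tested family 4 genes were not called. CYP4X1, a hydroxylase expressed in brain, read 84.8 and 55.7 with shRNA 1, 87.9 and 107.4 with shRNA 2, and 78.4 and 79.5 with NTC. Its shRNA 1 arrays differed from each other more than its group means did, and its averaged difference was 0.05 ± 0.13 (limma, adjusted p = 0.812). CYP4V2 differed by 0.16 ± 0.07 (adjusted p = 0.0907), and its second kept probe set by 0.18 ± 0.08 (adjusted p = 0.105). CYP4A11, a liver and kidney hydroxylase, was dim at 2.0 to 5.2.

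Families 2 and 3 are the main drug-metabolising families. Of their 15 members other than CYP2R1, which is described with vitamin D, 4 were tested. With both hairpins averaged 1 of these was called, where 32.4% of all tested genes were. CYP2E1, which oxidises ethanol, read 27.7 and 24.3 with shRNA 1, 19.3 and 26.6 with shRNA 2, and 11.3 and 9.9 with NTC. The knockdown arrays all lay above the array medians and the NTC arrays below them. CYP2E1 was higher by 0.66 ± 0.13 with shRNA 1, 0.54 ± 0.13 with shRNA 2 and 0.60 ± 0.11 averaged (limma, adjusted p = 0.00174), and its other kept probe set by 0.59 ± 0.10. It too was kept only through knockdown arrays, and its averaged difference ran from 0.25 with a pseudocount of 64 to 1.13 with 1. Its shRNA 2 call was lost without NTC replicate 2 (adjusted p = 0.0601) or shRNA 2 replicate 2 (0.0758).

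CYP2J2, an arachidonate epoxygenase, averaged 160 ± 0.35 with shRNA 1, 181 ± 11.6 with shRNA 2 and 148 ± 6.86 with NTC. Its averaged difference of 0.19 ± 0.08 did not pass the test (limma, adjusted p = 0.0849). CYP2U1 had probe sets that differed in sign: the brightest was 0.15 ± 0.07 from NTC with shRNA 1 (adjusted p = 0.124 in the probe set fit), and the second was -0.24 ± 0.08 (adjusted p = 0.0384). With shRNA 2 the second was 0.002 ± 0.08 from NTC. In that fit, shRNA 2 minus shRNA 1 was 0.24 ± 0.08 for the second (limma, adjusted p = 0.0493) and -0.12 ± 0.07 for the brightest (0.245). CYP2B6, the enzyme that clears efavirenz and bupropion, read 18.8 and 18.5, 5.9 and 19.7, and 17.4 and 20.3 in the shRNA 1, shRNA 2 and NTC arrays. This probe set may bind related transcripts, and the second CYP2B6 probe set was dim at 4.3 to 8.6. The averaged difference of the kept probe set was -0.16 ± 0.16 (adjusted p = 0.479), with 1 shRNA 2 array far below the other arrays. Without the other shRNA 2 array, replicate 2, the difference was -0.34 (adjusted p = 0.0398). CYP3A4, CYP3A5, CYP3A43, CYP2D6, CYP2C8, CYP2A6, CYP2A7, CYP2A13, CYP2F1, CYP2S1 and CYP2W1 were dim.

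The sterol-metabolising members that were tested moved in opposite directions. CYP39A1, the hydroxylase of 24-hydroxycholesterol, read 162.7 and 178.8 with shRNA 1, 215.6 and 188.0 with shRNA 2, and 106.1 and 98.8 with NTC. The knockdown and NTC arrays did not overlap. CYP39A1 was higher by 0.66 ± 0.10 with shRNA 1, 0.88 ± 0.10 with shRNA 2 and 0.77 ± 0.08 averaged (limma, adjusted p = 5.51e-05). Its other 2 probe sets were higher by 0.66 ± 0.09 and 0.45 ± 0.09.

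CYP7B1, which hydroxylates 25-hydroxycholesterol, 27-hydroxycholesterol and dehydroepiandrosterone, read 56.3 and 49.9 with shRNA 1, 59.6 and 70.3 with shRNA 2, and 88.4 and 89.0 with NTC. All knockdown arrays lay below both NTC arrays. CYP7B1 was lower, with a difference of -0.60 ± 0.11 for shRNA 1 (limma, adjusted p = 0.00142), -0.37 ± 0.11 for shRNA 2 (adjusted p = 0.0299) and -0.49 ± 0.09 averaged (adjusted p = 0.00244). Its second probe set differed by -0.28 ± 0.10 averaged (adjusted p = 0.0615), and with a pseudocount of 64 the first differed by -0.31. The shRNA 2 call was lost without NTC replicate 1, NTC replicate 2 or shRNA 2 replicate 1 (adjusted p = 0.12, 0.122 and 0.149), with no filter (0.0693) and with the mean over probe sets (0.0649). CYP7A1, CYP8B1, CYP27A1 and CYP46A1, the other bile acid and oxysterol members, were dim.

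Of the vitamin D enzymes, CYP27B1, which makes the active hormone, read 52.7 and 48.1 with shRNA 1, 58.5 and 60.9 with shRNA 2, and 76.9 and 75.8 with NTC. The 3 groups did not overlap. CYP27B1 was lower, with a difference of -0.48 ± 0.10 for shRNA 1 (limma, adjusted p = 0.00351), and its -0.29 ± 0.10 with shRNA 2 did not pass the test (adjusted p = 0.0624). The shRNA 2 difference did pass with a pseudocount of 64 (adjusted p = 0.0486), quantile normalization (0.0418), the mean over probe sets (0.0259) or no intensity trend (0.0278). The averaged difference was -0.38 ± 0.09 (adjusted p = 0.00642), without NTC replicate 1 its adjusted p was 0.0589, and with a pseudocount of 64 the difference was -0.24. CYP2R1, the 25-hydroxylase of vitamin D in liver, averaged 137 ± 0.85, 131 ± 0.64 and 146 ± 7.71 in the shRNA 1, shRNA 2 and NTC arrays, a difference of -0.11 ± 0.08 (adjusted p = 0.286). CYP24A1, which inactivates vitamin D and whose gene is a target of the vitamin D receptor, was dim at 2.6 to 5.5 in every array.

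The members that make steroid hormones or clear retinoic acid were dim. CYP17A1 read 0.3 to 2.1, CYP11A1, the cholesterol side-chain cleavage enzyme, 1.0 to 2.0, and CYP19A1, the aromatase, 1.4 to 6.3. CYP11B1 and CYP11B2, of cortisol and aldosterone synthesis, and CYP26A1, CYP26B1 and CYP27C1, of retinoid metabolism, were dim too. A dim probe set does not show that a gene is off. CYP20A1, an orphan enzyme with no settled substrate, was kept and averaged 96.2 ± 0.28, 94.3 ± 8.06 and 92.7 ± 14.4 in the shRNA 1, shRNA 2 and NTC arrays, a difference of 0.04 ± 0.10 (limma, adjusted p = 0.793).

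By brightest probe set, 2 members differed between the hairpins, where 25.7% of all tested genes did, 18.3% higher and 7.38% lower with shRNA 2. The 2 were CYP4B1, at 0.65 ± 0.11, and CYP4F11, at 0.53 ± 0.12 (limma, adjusted p = 0.00875), both higher with shRNA 2. The CYP4F11 call was lost without shRNA 1 replicate 1 (adjusted p = 0.0576). PRMT5 was reduced less by shRNA 2 than by shRNA 1. The larger CYP4B1 difference from NTC was with shRNA 2, and the larger CYP4F11 difference was with shRNA 1. A relation to the PRMT5 level was not tested.

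The promoter windows were also searched on both strands for sites of P450 regulators, of which 3 motifs are given here. RefSeq windows were at hand for 34 of the 47 members, 6 of them called. The called CYP1B1, CYP7B1, CYP27B1 and CYP4F12 had no window at hand, so they were not searched. GCGTG, the core of the site bound by AHR and its partner ARNT, was in 9 of the 34 and in 0 of the 6 called ones, CYP2E1, CYP39A1, CYP4B1, CYP4F8, CYP4F11 and CYP4Z1, against 36.3% of all 27305 windows. CYP1A1 held it 57 bases before the start site. A direct repeat of AGNTCA with 3 bases between, of the vitamin D receptor type, was in 0 members and 0.0549% of all windows. The same repeat with 5 bases between, of the retinoic acid receptor type, was in 0 members and 0.0842% of windows. GCGTG cannot overlap TATAAA. No match says only that these letters are not in these windows.

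Genes that supply, regulate or share substrates with P450 enzymes were tested in the same fit, again with 32.4% of all genes called in the averaged comparison. Of 10 electron donors and heme-binding partner proteins listed 8 were tested, of which 2 were higher and 0 lower, and their median log2 difference was 0.07. CYB5R3, a cytochrome b5 reductase, was higher by 0.26 ± 0.07 (limma, adjusted p = 0.0134) and PGRMC2, a heme-binding membrane protein, by 0.21 ± 0.05 (adjusted p = 0.0118). POR, the reductase that feeds microsomal P450 enzymes, differed by -0.05 ± 0.09 (adjusted p = 0.694), and FDXR, the mitochondrial ferredoxin reductase, was not tested. The CYB5R3 and PGRMC2 calls were lost without NTC replicate 1 (adjusted p = 0.0917 and 0.0823) or replicate 2 (0.0697 and 0.0873), and without probe sets that may bind related transcripts CYB5R3 read 0.07 and PGRMC2 0.48. CYB5R3 was not called with shRNA 1 (adjusted p = 0.0678). Of 11 tested among 12 genes of heme synthesis and breakdown, 2 were higher and 0 lower (median 0.10): HMOX1, the heme oxygenase, by 0.55 ± 0.11, and BLVRB, a biliverdin reductase, by 0.47 ± 0.14. HMOX1 averaged 20.7 ± 2.55 with shRNA 1, 11.4 ± 3.82 with shRNA 2 and 5.55 ± 0.21 with NTC, so it passed the filter through shRNA 1 alone, and its averaged difference ran from 0.20 with a pseudocount of 64 to 1.30 with 1. With shRNA 2, HMOX1 and BLVRB were not called (adjusted p = 0.0875 and 0.103). The BLVRB call was lost without NTC replicate 1 (0.27, adjusted p = 0.278), shRNA 1 replicate 2 (0.0598) or shRNA 2 replicate 1 (0.0556). Of 6 tested among 10 AHR pathway genes, NQO1, a quinone reductase that AHR and NRF2 induce, was higher by 0.34 ± 0.07 (adjusted p = 0.0039), 0 were lower and the median was 0.08.

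Of 10 tested among 21 nuclear receptors and partner factors, 3 were higher and 2 lower, with a median of -0.10. VDR, the vitamin D receptor, averaged 135 ± 7.07 with shRNA 1, 190 ± 1.34 with shRNA 2 and 398 ± 30.2 with NTC, a log2 difference of -1.23 ± 0.07 (limma, adjusted p = 4.7e-07). With the mean over its 3 kept probe sets the difference was -0.59 (adjusted p = 0.000241). NR5A2, a regulator of bile acid enzymes in liver, averaged 50.2 ± 0.14, 61.1 ± 3.61 and 226 ± 7.28 in the same groups, a difference of -1.76 ± 0.08 (adjusted p = 5.82e-08). Both receptors had no overlap between knockdown and NTC arrays. CEBPA, a liver-enriched factor, was higher by 0.35 ± 0.10 and PPARA, the receptor of fatty acids, by 0.33 ± 0.08. The CEBPA and PPARA calls were lost without NTC replicate 2 (adjusted p = 0.142 and 0.0727), and that of CEBPA without NTC replicate 1 (0.0758) or shRNA 1 replicate 1 (0.0644). Neither was called with shRNA 1 (adjusted p = 0.0883 and 0.215), and PPARA read 0.18 with the mean over its probe sets (0.0831). VDR and CYP27B1 were both lower, and their relation was not tested.

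Of 14 tested among 26 genes of androgen and steroid metabolism outside the P450 family, 5 were higher and 1 lower, with a median of 0.09. TSPO, a mitochondrial cholesterol-binding protein, was higher by 0.54 ± 0.11, AKR1C1, a steroid reductase, by 0.53 ± 0.11, STS, the steroid sulfatase, by 0.30 ± 0.09 and HSD17B6 by 0.22 ± 0.06 (limma, adjusted p = 0.0035, 0.00332, 0.0289 and 0.0136). AKR1C3, which makes testosterone and was named after its values were seen, was the 1 lower gene at -0.19 ± 0.07 averaged (adjusted p = 0.0426), with -0.34 for shRNA 1 and -0.04 for shRNA 2. HSD17B6 differed by 0.04 with shRNA 1 (adjusted p = 0.701) and 0.41 with shRNA 2 (0.00124), a difference between the hairpins of 0.37 (0.00359). STS differed by 0.21 with shRNA 1 (0.141) and 0.39 with shRNA 2 (0.0232). With the mean over probe sets AKR1C1 read 0.32 and STS 0.17 (0.0101 and 0.0588). The TSPO and AKR1C1 calls were lost without NTC replicate 1 (adjusted p = 0.0511 and 0.0609) and that of HSD17B6 without NTC replicate 2 (0.183). The STS call was lost without NTC replicate 1 (0.0989), NTC replicate 2 (0.159), shRNA 1 replicate 1 (0.0765) or shRNA 2 replicate 1 (0.0604).

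Of 11 tested among 18 retinoid genes, 4 were higher and 3 lower, with a median of 0.11. CRABP2, which carries retinoic acid, averaged 114 ± 16.7 with shRNA 1, 136 ± 20.9 with shRNA 2 and 24.7 ± 0.14 with NTC and was higher by 1.78 ± 0.11 (adjusted p = 4.7e-07). DHRS3, a retinal reductase, was higher by 0.73 ± 0.07, while BCO1, which splits beta-carotene, was at -0.81 ± 0.14 and RBP4, the retinol carrier, at -0.54 ± 0.11 (adjusted p = 2.28e-05, 0.00152 and 0.00348). BCO1 differed by -1.24 with shRNA 1 and by -0.39 with shRNA 2 (adjusted p = 0.126), a difference between the hairpins of 0.86 (0.00504), and its averaged call was lost with both hairpins as 1 group (0.105). RBP4 read 7.7 ± 3.25 with shRNA 1, 12.6 ± 0.78 with shRNA 2 and 21.9 ± 1.63 with NTC, so it passed the filter through NTC alone and a difference was built into its selection. With a pseudocount of 64 the averaged differences were 1.09 for CRABP2, -0.45 for BCO1 and -0.21 for RBP4. The retinoid P450 members were dim.

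Of 10 tested among 16 genes of arachidonate, epoxide and fatty acid metabolism, 2 were higher and 2 lower, with a median of 0.12. PLA2G2A, a secreted phospholipase that frees fatty acids, averaged 1844 ± 140 with shRNA 1, 1512 ± 146 with shRNA 2 and 311 ± 3.25 with NTC, a difference of 2.36 ± 0.07 (limma, adjusted p = 1.92e-09). HPGD, which inactivates prostaglandins, averaged 1481 ± 29.4, 1439 ± 21.8 and 999 ± 9.62 in the same groups, a difference of 0.54 ± 0.05 (adjusted p = 8.65e-06). ALOX15, a lipoxygenase, was at -0.27 ± 0.09 (adjusted p = 0.0444) and PTGS1, a cyclooxygenase, at -0.26 ± 0.09 (adjusted p = 0.0368). PTGS1 differed by -0.71 with shRNA 1 and 0.18 with shRNA 2, and its averaged difference turned to 0.12 without probe sets that may bind related transcripts. The ALOX15 call was lost when any of 5 arrays was left out, with adjusted p up to 0.284 without NTC replicate 1, and the PTGS1 call when any of 4 was, up to 0.346 without NTC replicate 2. ALOX15 was called with shRNA 1 (-0.37, adjusted p = 0.0196) and not with shRNA 2 (-0.18, 0.271). PLA2G2A and HPGD were called with each hairpin.

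**Figure D4:**
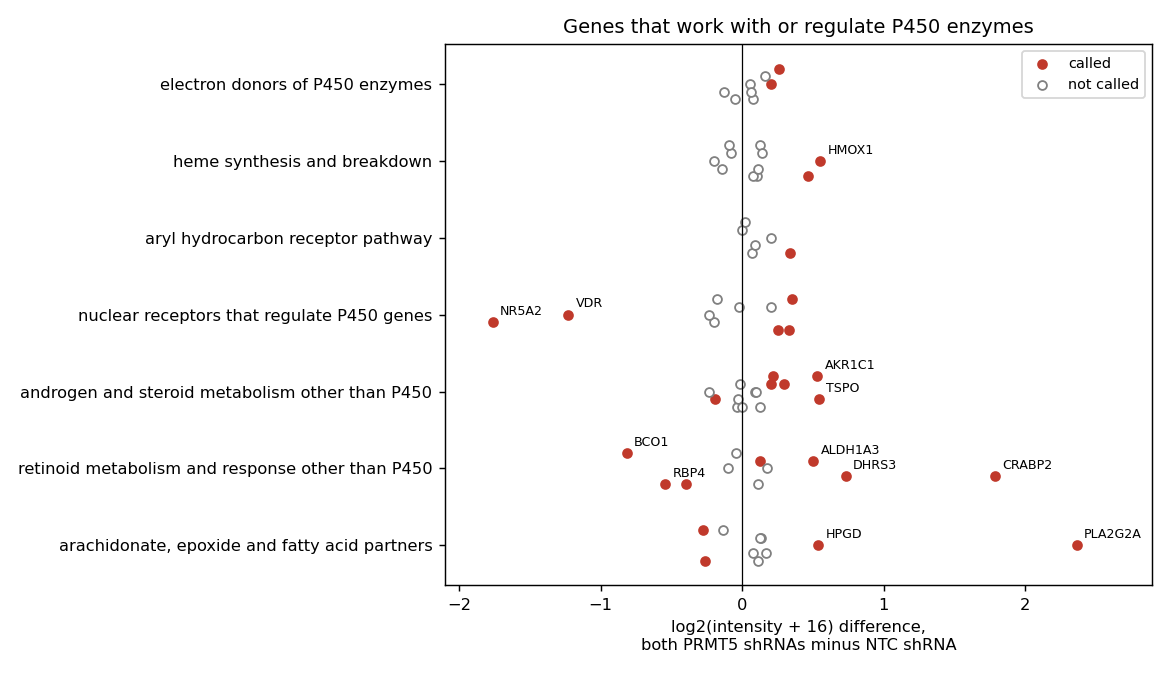
Log2(intensity + 16) difference, both PRMT5 shRNAs minus NTC shRNA, of the genes in 7 lists that supply, regulate or share substrates with P450 enzymes, 1 point per tested gene, filled where the adjusted p from limma was under 0.05. PLA2G2A and CRABP2 lie farthest to the right, at 2.36 and 1.78, and NR5A2 and VDR farthest to the left, at -1.76 and -1.23.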

How the data were processed

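RNA of 6 VCaP arrays, 2 per hairpin, was measured on 54675 probe sets. The deposited values are linear intensities that the authors computed by MAS5, per the submitters' processing notes. The sources used here give neither its version nor detection calls. The mean after trimming 2% at each end was 150.0 on every array, so no scaling was added. Groups came from sample titles. Of the probe sets, 62 were controls, 41091 had 1 symbol, 1801 several and 11721 none, and 41037 Entrez IDs matched the RefSeq gene table of GRCh38.p14.

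Values were fitted as log2(intensity + 16) in R 4.3.3 by the lmFit, contrasts.fit and eBayes (trend) steps of limma 3.58.1, a coefficient per group, 3 residual and 7.89 prior degrees of freedom, two-sided, adjusted over 12413 genes. The code was tested on simulated data. The log2(intensity + 16) scale understates changes of dim genes. The number of arrays limits the precision: the median replicate SD was 0.08 (log2).

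The members and gene lists were chosen with earlier results of these data known. Every kept member is named, called members array by array; of each list, at most the 4 called genes with the largest averaged difference are named, plus AHR, POR, FDXR and, after its values were seen, AKR1C3. One further gene of the naming rule is not reported here. Alternatives covered the filter, pseudocounts of 1 and 64, quantile normalization, probe set choice, the trend, a replicate block, 1 group of both hairpins and each array left out.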

Additional observations from a re-analysis of the deposited data

Results flagged for a closer look

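CYP4B1 and CYP4F11 stood out because the test of the difference between the 2 hairpins was passed. CYP4B1 averaged 73.2 ± 2.76 with shRNA 2 and 40.9 ± 4.24 with shRNA 1 (SD, n = 2 each), a log2 difference of 0.65. CYP4F11 averaged 42.9 ± 6.51 with shRNA 2 and 24.7 ± 2.62 with shRNA 1, a log2 difference of 0.53.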

How the results depend on the processing

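With both hairpins averaged the number of P450 genes called was 10, and it was 6 of 12 tested under a filter of 50 in 2 arrays, 7 with both hairpins as 1 group and 8 to 11 when 1 array was left out. With shRNA 1 the 10 calls became 6 under that filter and 9 to 10 with an array left out. With shRNA 2 the 7 calls ran from 4, without NTC replicate 2, to 7 with an array left out, and were 8 or 9 under 4 other settings. Between the hairpins the 2 calls became 1 under that filter and 2 to 4 with an array left out, 4 being without shRNA 2 replicate 2. The stricter filter tests fewer genes; the cause of the other moves was not tested. Replicate numbers did not pair the arrays, with correlations of their deviations at -0.09, -0.18 and 0.00; with a replicate block the counts were 10, 10, 7 and 2, and the averaged calls of ALOX15 and PTGS1 were lost (limma, adjusted p = 0.053 and 0.0518). For called P450 genes, 437 alternative values kept their call and direction, 21 lost the call and 0 changed sign, the averaged losses being CYP27B1, CYP4F12 and CYP4F11. Of the partner genes 294 kept it, 50 lost it and 1, PTGS1 at 0.12 without probe sets that may bind related transcripts, changed sign. The setting without such probe sets tested 16 P450 genes. Of the called P450 genes, CYP1B1 and CYP4F12 have only such probe sets, so that setting gave no value for them. Over all genes the averaged calls were 4016, and 2200 and 2315 without an NTC array and 1501 with 1 group; the hairpin calls of 3192 were 1726 and 1333 without a shRNA 1 array and 2017 without shRNA 2 replicate 2. Without any filter CYP2C8, a dim gene, was lower at -0.39 (limma, adjusted p = 0.0286). A filter on the mean of all arrays, chosen after seeing the data, gave 10, 10, 7 and 2. With 2 arrays a group, a missed call does not show that groups were alike, and probe sets near the array medians carry little signal over background. With both hairpins as 1 group, a fit that counts the difference between hairpins as spread, the averaged calls of CYP27B1, CYP4F12 and CYP4F11 were lost (limma, adjusted p = 0.0652, 0.0652 and 0.229). So were those of CYB5R3, PGRMC2, HMOX1, BLVRB, NQO1, CEBPA, PPARA, STS, HSD17B6, BCO1, ALOX15 and PTGS1, at adjusted p-values between 0.0579 (PGRMC2) and 0.576 (PTGS1).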

Other observations

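Some P450 probe sets carry several symbols and were in no comparison. The probe set shared by CYP2D6, CYP2D7 and a neighbouring locus read 11.9 and 12.4 with shRNA 1, 16.4 and 14.7 with shRNA 2, and 16.4 and 18.8 with NTC. The probe set shared by CYP4F2 and CYP4F3 read 4.4 and 4.2, 6.5 and 5.6, and 2.0 and 1.5 in the same groups, below the array medians throughout. That of CYP2B6 and its pseudogene CYP2B7P read 9.6 and 14.8, 10.5 and 5.7, and 6.8 and 9.2. Probe sets shared by CYP3A7 and its readthrough locus lay between 1.9 and 8.9, and that of CYP21A2 and its pseudogene between 0.7 and 2.7.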
